A study of Mus musculus with 15 samples.

Results

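The untreated cortical neurons of this series are 6 of its 15 arrays, chosen by the label that marks them as controls, and all 24607 mouse targets of the deposited signal table were read on them. They came from foetal neocortex of Swiss albino mice, taken at gestation day 15 to 16 and grown as primary cultures to day 5. The labels give the agent of the controls as none and their time point as 0, while the series design calls them vehicle controls shared by an AMPA and a kainate experiment. The other 9 arrays held the same kind of culture after 100 µM kainate, an agonist of AMPA and kainate receptors, 3 of them exposed for 5 h, 3 for 15 h and 3 for 24 h. No genotype, transgene or sorting step is given, so each array reads the mixture of cells in a dish. In such bulk RNA, fewer cells of a type and less RNA per cell cannot be told apart. The labels do not say whether the 6 controls were separate cultures, so every p-value measures only the spread between these samples, which may be technical.

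Cortical cultures of this foetal age hold mostly young glutamatergic projection neurons and GABAergic interneurons, with progenitors, astrocytes and oligodendrocyte precursors that survive or divide in the dish. AMPA, kainate and NMDA receptors are tetrameric cation channels gated by glutamate; AMPA receptors carry most fast excitation, kainate receptors modulate release and excitability, and NMDA receptors admit calcium and mediate much of excitotoxic death. Which subunits and which auxiliary proteins a culture makes sets what an agonist such as kainate can act on.

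Each target is a set of beads carrying the same probe. A target was called detected on an array where its signal exceeded that of the negative control beads at a detection p below 0.05. Levels below are log2 values after background correction, an offset of 16 and quantile normalization over the 6 controls, and they are given as the lowest, median and highest of those 6 arrays. The percentile of a target is its place in the order of the mean levels of the 24606 targets kept, where 100 is the brightest. A probe's brightness depends on its affinity as well as on the amount of its RNA, so a rank orders signals and not numbers of molecules. A gene is represented by its brightest target in the controls.

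The 6 controls were alike in depth. Median signals were 54.9 to 69.0 intensity units, a median of 34 beads stood behind each target, and the share of targets detected per array was 51.0% to 55.2% on the 9 kainate arrays and 49.5% to 52.0% on the controls. Levels correlated between pairs of controls at Pearson's r of 0.986 to 0.997, computed across targets, which are not independent replicates. Replicates 1 and 3 differed from the remaining controls. Along the leading principal component, which carried 60.1% of the variance between controls, the score was 0.27 for replicate 1 and 0.17 for replicate 3, while it lay between -0.17 and -0.03 for the other 4. Between replicates 1 and 6, 497 targets (4.52%) lay more than 1 log2 unit apart, compared with 24 between replicates 1 and 3 and 2 between replicates 5 and 6. Replicates 1 and 3 sat at position A of their chips, but so did replicate 5. Results that rest on this separation are therefore given with and without replicates 1 and 3.

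The controls had 15923 named genes on the array. Of these, 7946 (49.9%) were detected on all 6 controls, 1967 on 1 to 5 of them, and 6010 (37.7%) on none. Counted by target, 10998 of 24607 (44.7%) were detected on all 6, 3273 (13.3%) on some and 10336 (42.0%) on none. The median level was 7.79 for targets detected on all 6, 4.86 for those detected on some and 4.38 for those detected on none. The 6 controls thus gave different calls for 13.3% of the targets.

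An undetected target is not an unexpressed gene. Among 84 genes for cytosolic ribosomal proteins, respiratory chain subunits and glycolytic enzymes, which every cell needs, 78 (92.9%) were detected on all 6 controls. The ribosomal protein Rpl4 was detected on 4 of the 6, and Ndufs1, Pgk1, Rpsa, Sdha and Uqcrq were detected on none. Of 3680 genes with several targets, 968 (26.3%) had a target detected on all 6 controls and another detected on none, and the median gap between the brightest and the dimmest target of a gene was 1.24 log2 units. In the gene lists used here 92 genes had targets with different calls. Map2, a dendritic microtubule protein, had 6 targets, of which 2 were detected on all 6 controls, 1 on 3, 1 on 1 and 2 on none.

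The brightest genes were those of growing neurons and of basic cell machinery. Ybx1, an RNA-binding Y-box protein, had the highest level among named genes, 14.26 at the lowest and 14.47 on the other 5 controls, where it was the brightest target and so lay at the top of the quantile scale. Next came the ribosomal protein Rpl41 (14.19, 14.25 and 14.43), beta-actin Actb (14.20, 14.23 and 14.32) and Hmgcs1 (13.92, 14.22 and 14.32), the enzyme that makes HMG-CoA for cholesterol synthesis. The order of genes this close together is not firm, since the ranges of neighbours overlap.

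Of the 30 brightest genes, Rpl37, Rps29, Rps20, Rps14, Rpl23 and Rps21 encode ribosomal proteins, and Eef1g and Eif3f encode translation factors. Atpif1, Atp5b and Atp5g3 belong to the mitochondrial ATP synthase or regulate it. Gapdh is a glycolytic enzyme and Ckb the brain creatine kinase. Genes known from neurons in that group were Mllt11, the growth-associated Nrep, the collapsin response mediator Dpysl2, the endoplasmic reticulum protein Rtn1, the imprinted growth suppressor Ndn, the 14-3-3 protein Ywhag, the prion protein Prnp, calmodulin Calm3 and the sodium pump regulator Fxyd6. The rest were the cyclophilin Ppia, the desaturase Scd2, the acyl-CoA binding protein Dbi and 4933416I08Rik, for which no role is given here. Mean levels of the 30 lay between 13.76 and 14.43.

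Promoter sequence was compared between the genes detected on all 6 controls and those detected on none. Promoters, taken from RefSeq on build GRCm38.p6, ran from 250 bases before to 50 bases after each start, and 12813 of 15524 array genes on the chromosomes of that table (82.5%) had a promoter in it. The ratio of observed to expected CpG dinucleotides, which is high in CpG islands, exceeded 0.6 in 4790 of 6497 genes detected on all 6 controls (73.7%), against 1278 of 4785 genes detected on none (26.7%). It was 42.8% among genes detected on some controls and 52.5% over all 12813 genes with a promoter. Counted by promoter, it was 35.8% over all 32851 promoters of the table. The letters TATAAA began between 40 and 20 bases before the start in 1.29% of genes detected on all 6. The share was 4.83% of genes detected on none, 2.87% of all 12813 genes and 1.99% of all promoters in the table. Within the genes detected on all 6, the CpG share was 60.8% in the dimmest of 5 equal bins and 79.1% in the brightest, whereas across 5 bins of the spread between controls it stayed between 70.7% and 77.2%. These counts describe sequences and were not tested.

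Promoters of 4 genes show the range of CpG content, with each CpG in capitals, or the TATAAA letters in the case of Hba-x. Ybx1 (chr4:119294464-119294763, minus strand) is the brightest named gene and has 32 CpG dinucleotides, a ratio of 1.09. Gria2 (chr3:80802786-80803085, minus strand) encodes the AMPA receptor subunit with the highest level here and has 26, a ratio of 0.804. Cldn5 (chr16:18776597-18776896, plus strand), a tight junction gene of brain endothelium, was detected on 4 controls near the limit and has 12, a ratio of 0.476. Hba-x (chr11:32276350-32276649, plus strand), an embryonic globin gene, was detected on none and has 2, a ratio of 0.0853.
Ybx1: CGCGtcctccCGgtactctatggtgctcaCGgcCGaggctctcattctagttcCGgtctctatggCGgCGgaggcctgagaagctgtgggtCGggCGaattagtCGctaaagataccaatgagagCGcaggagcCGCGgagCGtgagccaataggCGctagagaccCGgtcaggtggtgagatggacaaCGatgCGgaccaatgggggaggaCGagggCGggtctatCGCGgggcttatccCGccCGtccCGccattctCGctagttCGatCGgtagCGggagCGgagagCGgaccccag
Gria2: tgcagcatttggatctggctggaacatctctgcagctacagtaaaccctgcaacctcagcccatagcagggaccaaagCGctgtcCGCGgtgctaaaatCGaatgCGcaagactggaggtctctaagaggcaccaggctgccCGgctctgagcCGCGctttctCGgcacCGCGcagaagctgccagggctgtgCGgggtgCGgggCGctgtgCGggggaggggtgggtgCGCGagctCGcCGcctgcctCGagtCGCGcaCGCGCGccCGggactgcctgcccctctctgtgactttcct
Cldn5: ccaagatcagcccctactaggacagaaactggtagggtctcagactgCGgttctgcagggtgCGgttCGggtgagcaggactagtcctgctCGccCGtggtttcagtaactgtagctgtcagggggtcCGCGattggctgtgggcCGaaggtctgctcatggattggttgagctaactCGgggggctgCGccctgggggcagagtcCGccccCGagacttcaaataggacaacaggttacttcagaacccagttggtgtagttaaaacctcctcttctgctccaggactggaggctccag
Hba-x: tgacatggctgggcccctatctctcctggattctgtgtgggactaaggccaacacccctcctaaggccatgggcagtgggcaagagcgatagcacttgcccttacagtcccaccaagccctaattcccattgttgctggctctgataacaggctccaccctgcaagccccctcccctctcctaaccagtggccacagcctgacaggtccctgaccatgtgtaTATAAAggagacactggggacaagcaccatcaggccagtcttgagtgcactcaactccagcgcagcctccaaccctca

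Among AMPA receptor subunits the signal was brightest for Gria2. Gria2, the subunit whose edited form makes the channel nearly impermeable to calcium, had levels of 11.73, 12.32 and 12.36, at percentile 98.5. Gria1 followed with 8.69, 9.76 and 10.01 at percentile 89.4, and Gria3 with 5.64, 6.10 and 6.46 at percentile 64.2. Gria4 was detected on 1 of 6 controls, between 4.55 and 5.24, around the median level of 4.86 for targets detected on some controls. The ranges of the 4 subunits did not overlap, so their order by signal was the same on every control. Gria1 had a second target at 8.68 on average, detected on all 6, and another at 4.47, detected on none.

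Gria1, Gria2 and Gria3 were all lowest in control replicates 1 and 3. The median deviation of Gria1, Gria2 and Gria3 from their own 6-array means was -0.43 in replicate 1 and -0.39 in replicate 3, and between 0.17 and 0.35 in the other 4. Their percentiles moved little: without replicates 1 and 3 Gria2 stood at 98.7, Gria1 at 91.0 and Gria3 at 65.6.

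Auxiliary proteins, which traffic AMPA receptors and slow their closing, were detected for 10 of the 11 genes read. Cnih3, a cornichon, had levels of 8.996, 9.29 and 9.47, and the transmembrane regulator Cacng4 had 8.42, 9.04 and 9.28. Abhd6 (7.05, 7.33 and 7.54), Porcn (6.93, 7.05 and 7.15), Cnih2 (6.56, 7.08 and 7.29), Cacng5 (6.81, 6.94 and 7.19), Cacng3 (6.32, 6.80 and 7.68), Shisa7 (6.61, 6.81 and 6.96) and Cacng7 (6.27, 6.63 and 6.97) overlapped one another. Gsg1l was lower, with 5.26, 5.49 and 5.68. Cacng8 was detected on 2 controls. Cacng2, Shisa6, Shisa9 and Frrs1l were not analysed here.

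Among kainate receptor genes, Grik5, Grik1 and Grik4 were detected on all 6 controls, and Grik2 and Grik3 on none. Grik5, which encodes the high-affinity subunit GluK5, had levels of 7.54, 7.97 and 8.33 at percentile 78.7. Grik1, which encodes GluK1, had 7.06, 7.82 and 7.91 at percentile 76.4, overlapping Grik5, and a second target detected on none at 4.55. Grik4, the other high-affinity subunit, had 5.26, 5.40 and 5.60 at percentile 57.7. Neto1, an auxiliary protein of kainate receptors, had 6.27, 6.55 and 7.26 at percentile 69.0. Neto2 was not analysed here. GluK4 and GluK5 are known to need a partner of the GluK1 to GluK3 class to form a channel, and of that class the array detected Grik1 alone. The undetected targets of Grik2 and Grik3 do not show that their RNA was absent.

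NMDA receptor subunits were thinly read. Grin2c was detected on all 6 controls with levels of 5.54, 5.93 and 6.35, Grin2b and Grin3b were detected on 1 control each, and Grin2a and Grin2d on none. Grin1, the obligatory subunit, and Grin3a were not analysed here. Of the metabotropic receptors, which act through G proteins, Grm8 was detected on all 6 (5.80, 6.11 and 6.44), Grm4 and Grm6 on 5, Grm7 on 2 and Grm3 on none. The plot of glutamate receptor levels shows each of these targets by control.

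**Figure D1:**
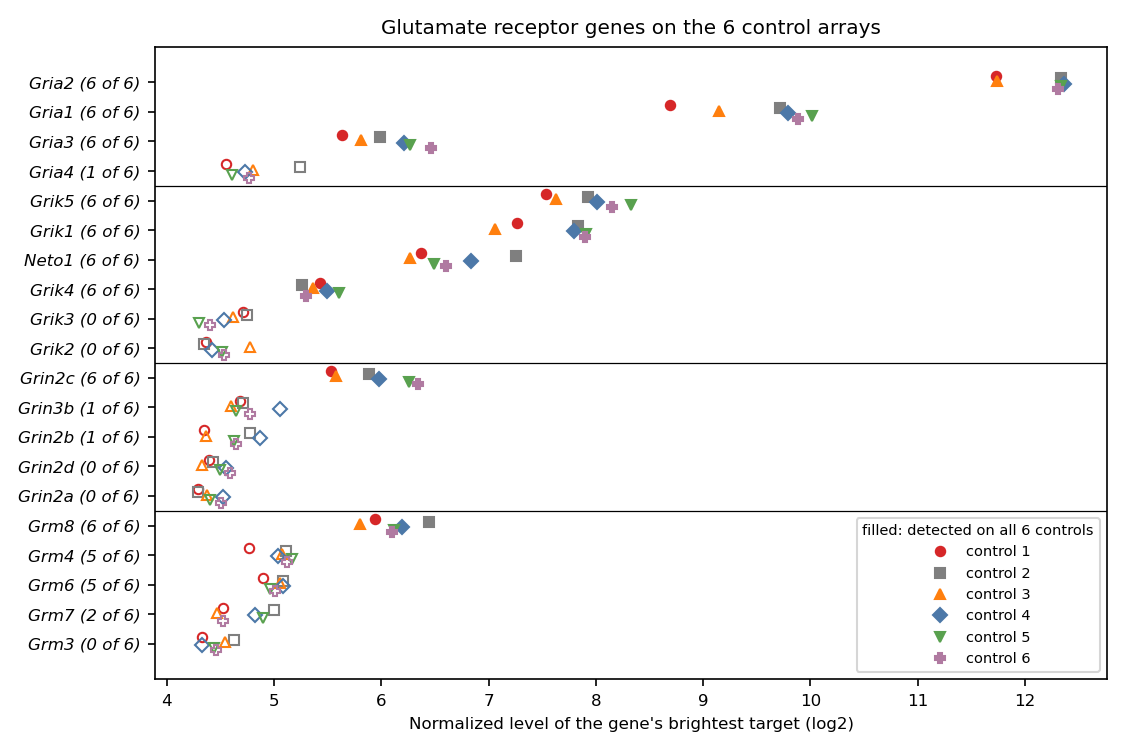
Normalized log2 level of each glutamate receptor gene and Neto1 in the 6 controls, 1 symbol per control, filled where the target was detected on all 6, with the number of controls that detected it beside the name. Gria2 lies highest at 11.73 to 12.36, and the undetected subunits lie near 4.4.

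Inhibitory receptors were read in part. Of 14 GABA-A subunits, Gabra3 (7.04, 7.62 and 7.68), Gabrb2 (5.99, 6.44 and 6.89) and Gabrd (5.24, 5.88 and 6.02) were detected on all 6 controls, Gabrg1 on 5, and Gabra2, Gabra4, Gabra5, Gabra6, Gabrg3, Gabre, Gabrp, Gabrq, Gabrr1 and Gabrr2 on none. A second Gabrb2 target was detected on none. Gabbr1 of the GABA-B receptor had 8.16, 8.81 and 9.01.

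Glra2, the glycine receptor subunit of the developing brain, was the brightest inhibitory receptor target, at 10.42, 10.69 and 11.04 and percentile 95. Its partner Glrb had 6.82, 7.01 and 7.17, and Glra1, Glra3 and Glra4 were detected on none. Of the chloride and GABA transport genes, the chloride exporter Slc12a5 was detected on 2 controls and the importer Slc12a2 was not analysed here. The GABA transporter Slc6a11 had 7.89, 8.36 and 8.92, the GABA transaminase Abat 9.35, 9.61 and 9.72, and Slc6a12 and Slc6a13 were detected on none.

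The receptors read for other transmitters were mostly at or under the limit of detection. Of 15 nicotinic subunits, Chrna4 (8.65, 9.06 and 9.34) and Chrnb2 (7.65, 7.72 and 7.86), which together form the main brain receptor, were the brightest, with Chrna3, Chrna5 and Chrna9 also detected on all 6 and Chrnb4 on 4. Chrna7 and Chrne were detected on 1 control each and Chrna1, Chrna2, Chrna6, Chrnb1, Chrnb3, Chrnd and Chrng on none. Chrm3 (6.00, 6.18 and 6.33) was the only muscarinic receptor of 5 that was detected.

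Htr1a (5.19, 5.33 and 5.59) was detected on all 6, Htr1d and Htr7 on 5, Htr2a on 4, Htr3a on 3, Htr5b on 1 and the other 8 serotonin receptors on none. Drd1 (5.22, 6.10 and 6.54) was detected on all 6, Drd4 on 4, Drd2 on 1, and Drd3 and Drd5 on none. The autoreceptor Hrh3 was detected on 5 controls and Hrh1, Hrh2 and Hrh4 on none. Of 9 adrenergic receptors only Adra1b was analysed here, and it was detected on 1 control. Of 4 opioid receptors, the nociceptin receptor Oprl1 (7.24, 7.94 and 8.10) was detected on all 6, Oprk1 on 5, and Oprm1 and Oprd1 on none. The cannabinoid receptor Cnr1 had 5.73, 5.90 and 6.09, and Cnr2 was detected on none.

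Of 15 adenosine and purine receptors, P2ry1 (6.72, 6.94 and 7.09), P2ry2, P2ry6, P2rx6 and P2rx4 were detected on all 6 controls. P2rx2 was detected on 5, P2rx3 and P2rx5 on 1, and Adora3, P2rx1, P2rx7, P2ry4, P2ry12, P2ry13 and P2ry14 on none. Adora1, Adora2a and Adora2b were not analysed here. Of 26 neuropeptide receptors 13 were detected on all 6, led by the neurotensin receptor Ntsr1 (8.83, 9.62 and 9.74), Sstr2 (7.71, 7.96 and 8.52), Npy1r (7.78, 7.98 and 8.30), Ntsr2 (7.72, 7.97 and 8.14) and Rxfp3 (7.59, 7.79 and 8.02). These shares can be set against the 49.9% of all genes that were detected on all 6.

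Trophic factor receptors were detected on all 6 controls for 12 of 22 genes. The sorting receptor Sort1 had 11.26, 11.33 and 11.52, Pdgfra, a receptor of oligodendrocyte precursors, 10.43, 10.55 and 10.74, and Egfr 8.02, 8.24 and 8.48. The neurotrophin receptor Ntrk3 had 7.14, 8.16 and 8.38 and Gfra1 7.11, 7.26 and 7.61. Ngfr, Ret, Gfra2, Fgfr4, Erbb3, Erbb4, Kdr and Flt1 were detected on none. Of the death receptors Tnfrsf1a (7.77, 8.06 and 8.21), Tnfrsf12a, Tnfrsf21, Tnfrsf1b and Tnfrsf10b were detected on all 6, Ltbr on 1 and Fas on none.

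Set against the label of cortical neurons, the markers of neurons were among the brightest targets of the controls. Of 24 pan-neuronal genes 21 (87.5%) were detected on all 6, with a median percentile of 95.3 for the list, against 55.2 for all genes. Rtn1 had 13.76, 13.84 and 13.91, the microtubule protein Mapt 13.45, 13.64 and 13.73, the tubulin-binding Stmn2 13.24, 13.40 and 13.66, the growth cone protein Gap43 13.01, 13.16 and 13.46, and the migration gene Dcx 12.95, 13.12 and 13.22. Snap25 was detected on 2 controls, and the neurofilaments Nefl and Nefh on none. Rbfox3 and Ina were not analysed here. Dcx had a second target detected on all 6 at 7.13 and another detected on none at 4.29.

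Glutamatergic identity genes were detected on all 6 controls for 10 of 12. The vesicular transporter Slc17a6 had 10.58, 10.74 and 10.95, the bHLH factor Neurod2 10.14, 10.28 and 10.53, the T-box factor Tbr1 9.50, 9.63 and 9.84, the calmodulin-binding Nrgn 9.44, 9.63 and 9.83, and the later vesicular transporter Slc17a7 8.26, 8.82 and 9.64. Eomes, a factor of intermediate progenitors, was detected on 5 controls and Slc17a8 on none. Of these, Slc17a7 had the widest range between controls.

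Both deep and upper layer genes were read. Deep layer factors were detected for 11 of 13 genes, with Ldb2 at 10.62, 11.39 and 11.45, Fezf2 at 11.09, 11.32 and 11.36, Bcl11b at 10.88, 11.12 and 11.18, Sox5 at 10.73, 10.77 and 11.01, and Crym at 10.34, 10.52 and 10.60. Syt6 and Cplx3 were detected on none. Upper layer genes were detected for 7 of 9, led by Cux1 (8.85, 9.09 and 9.25), Lhx2 (8.09, 8.24 and 8.63), Cux2 (6.91, 7.12 and 7.39), Rorb (7.13, 7.17 and 7.21) and Plxnd1 (6.08, 6.53 and 6.71), with Kitl and Rasgrf2 on 4 controls. The median percentile was 88.6 for the deep layer list, against 67.7 for the upper layer list, a difference that mixes abundance and probe affinity. Of 10 Cajal-Retzius and subplate genes, Reln (9.48, 10.09 and 10.17) and Calb2 (9.21, 9.34 and 9.49) were detected on all 6, Nxph4 on 1, and Trp73, Lhx1, Lhx5, Ebf2, Ebf3, Ndnf and Cdkl1 on none; Reln and Calb2 are also expressed by interneurons.

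GABAergic interneuron genes included some of the brightest neuronal markers and some that were at background on every control. Of 22 genes 12 (54.5%) were detected on all 6, among them the peptide Sst (11.41, 11.55 and 12.29), the GABA-synthesizing Gad1 (10.87, 11.13 and 11.46), the peptide Cck (10.13, 10.28 and 10.39), the vesicular GABA transporter Slc32a1 (10.12, 10.21 and 10.35) and the factor Dlx2 (9.94, 10.08 and 10.32). Gad2, Pvalb, Vip, Calb1 and Nr2f2 were detected on none. Nkx2-1 was detected on 5 controls, Npas1 on 3, Dlx5 on 2, and Lhx6 and Nos1 on 1.

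Genes of striatal projection neurons, which can enter a cortical dissection, were detected on all 6 for 9 of 11 but at modest levels. Foxp1, also a cortical factor, had 8.40, 8.66 and 8.78 and Tac1 7.43, 7.58 and 8.93, while Gng7 (6.39, 6.62 and 6.98), Pdyn (6.09, 6.23 and 6.47) and Drd1 were lower; Isl1 was detected on 2 controls and Drd2 on 1. Of 10 cholinergic and monoaminergic genes, the serotonin transporter Slc6a4 (5.15, 5.42 and 5.60) was detected on all 6, Tph2 on 3, and Chat, Slc18a3, Slc5a7, Th, Ddc, Dbh, Slc6a3 and Slc18a2 on none.

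The plot of marker lists gives these shares with those of the cell types described next.

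**Figure D2:**
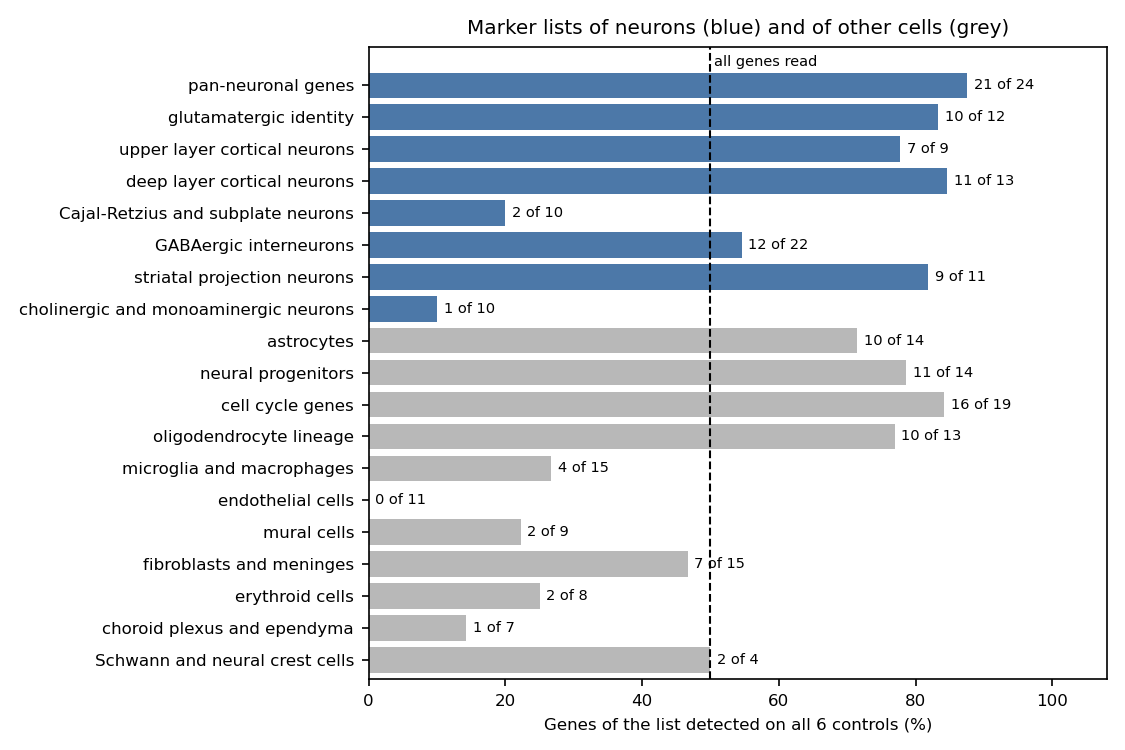
Share of each marker list detected on all 6 controls (bars, percent of the list's genes on the array, with the counts beside them), for neurons in blue and other cells in grey, with the share of all genes read as a dashed line. Pan-neuronal genes reach 87.5% and endothelial genes 0%, against 49.9% of all genes.

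Markers of cells other than neurons were present in a graded way. Astrocyte genes were detected on all 6 for 10 of 14, and 5 of them were bright: the glutamate transporter Slc1a3 (12.61, 12.63 and 12.65), the gap junction protein Gja1 (11.59, 11.65 and 11.74), Aldoc (11.59, 11.65 and 11.73), Apoe (11.31, 11.49 and 11.62) and the factor Sox9 (11.21, 11.30 and 11.44). Several of these genes are also expressed by radial glia. Gfap, the filament of mature astrocytes, was low, with 5.41, 5.57 and 5.82, Mlc1 was detected on 2 controls, and Slc1a2, S100b and Gjb6 on none.

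Neural progenitor genes were detected for 11 of 14, led by the endothelin receptor Ednrb (11.62, 11.69 and 11.94), Vim (11.17, 11.21 and 11.31), Prom1 (9.09, 9.30 and 9.41), Hes5 (8.41, 8.46 and 8.97) and Tnc (8.25, 8.46 and 8.63). Fabp7 was detected on 5 controls, Sox1 on 1 and Pax6 on none. Cell cycle genes were detected for 16 of 19, with Ccnd1 at 8.14, 9.01 and 9.15, Mcm5 at 8.35, 8.54 and 9.05, Mcm6 at 7.32, 7.86 and 8.35, Plk1 at 7.32, 7.42 and 8.64, and Rrm2 at 7.14, 7.54 and 8.12. Ccnb2, Ccna2 and Bub1 were detected on none.

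Oligodendrocyte lineage genes were detected for 10 of 13. The factor Olig1 had 13.12, 13.25 and 13.29, the brightest marker of any non-neuronal list, and Pdgfra, Sox10 (9.32, 9.35 and 9.79), Gpr17 (8.07, 8.19 and 8.31) and Cspg4 (6.92, 7.16 and 7.36) mark precursors. Mbp was at 6.32, 6.45 and 6.59, and the myelin genes Mog, Mag and Mobp were detected on none.

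Markers of microglia, blood vessels and blood were detected in smaller shares than all genes, and fibroblast and meningeal markers in a share near theirs. Of 15 microglia and macrophage genes, Lgals3 (6.69, 6.79 and 6.97), Lyz2 (5.93, 6.25 and 6.38), Aif1 (5.49, 5.63 and 5.89) and C1qc (4.99, 5.13 and 5.43) were detected on all 6. Trem2 and C1qa were detected on 2 controls, C1qb, Cx3cr1 and Tmem119 on 1, and Itgam, Tyrobp, P2ry12, Ptprc, Cd14 and Ctss on none. No endothelial gene of 11 was detected on all 6, against 49.9% of all genes: Esam was detected on 5 controls, Cldn5 on 4, Emcn on 3, Cdh5 and Vwf on 1, and Pecam1, Kdr, Tek, Flt1, Slco1a4 and Eng on none.

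Of 9 mural genes, Acta2 (8.45, 8.82 and 9.31) and Pdgfrb (5.54, 5.67 and 5.80) were detected on all 6 and Mcam on 4, while Kcnj8, Abcc9, Anpep, Myh11, Tagln and Des were detected on none. Of 15 fibroblast and meningeal genes 7 (46.7%) were detected on all 6, against 49.9% of all genes, led by Pdgfra, which is shared with the oligodendrocyte list, Dcn (9.87, 9.91 and 10.10), Igfbp2 (8.67, 8.73 and 8.93), Igf2 (7.41, 7.78 and 7.93) and Fbln2 (7.33, 7.46 and 7.56). The collagens Col1a1, Col1a2 and Col3a1, with Lum, Foxc1, Foxd1, Slc22a6 and Vtn, were detected on none.

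Erythroid genes were low: Hba-a1 had 5.72, 6.00 and 6.21 and Hbb-bh1 4.88, 5.04 and 5.29, Slc4a1 was detected on 1 control, and Hbb-b2, Hbb-bt, Hba-x, Alas2 and Hemgn on none. Of 7 choroid plexus and ependymal genes, the thyroxine carrier Ttr (9.04, 9.24 and 9.60) was detected on all 6, Folr1 on 2, Foxj1 and Aqp1 on 1, and Kl, Clic6 and Otx2 on none. Of 4 Schwann and neural crest genes, Pmp22 (8.80, 9.04 and 9.14) and Sox10 were detected on all 6, and Foxd3 and Erbb3 on none.

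Synaptic genes were detected on nearly all controls. All 13 postsynaptic scaffold genes read were detected on all 6, led by Dlg3 (10.43, 10.75 and 10.97), Pick1 (10.49, 10.63 and 10.89), Homer2 (9.86, 10.39 and 10.48), Homer1 (10.05, 10.30 and 10.50) and Grip1 (9.40, 9.63 and 9.85). Of 24 presynaptic genes 20 were, led by Syt4 (12.59, 12.76 and 12.84), Cplx1 (12.54, 12.64 and 12.82), Syp (12.24, 12.34 and 12.65), Vamp2 (12.18, 12.23 and 12.31) and Stx1a (12.08, 12.23 and 12.41). Unc13a was detected on 5 controls, Syn3 on 3, Snap25 on 2 and Bsn on none.

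Of 24 neuropeptide genes 17 were detected on all 6, and after Sst the brightest were the neurexophilin Nxph1 (10.08, 10.42 and 10.59), Cck, Npy (9.77, 9.91 and 10.18) and Nxph2 (9.47, 9.62 and 9.72). Calcium sensors and buffers were detected on all 6 for 16 of 19, led by Calm3 (13.62, 13.80 and 13.84), Vsnl1 (10.77, 11.11 and 11.27), Ncald (10.63, 10.74 and 11.06), Hpca (9.68, 9.84 and 10.08) and Calm2 (9.12, 9.35 and 10.51).

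Voltage-gated channels were read on all 6 for 3 of 7 sodium, 9 of 14 calcium and 12 of 18 potassium channel genes. The sodium channel beta subunit Scn3b had 9.39, 9.99 and 10.21, with Scn1a (5.73, 6.25 and 6.41) and Scn8a (5.39, 5.98 and 6.50) much lower, Scn11a on 5 controls, Scn3a on 4, and Scn7a and Scn10a on none. Among calcium channels the T-type Cacna1h (8.91, 9.57 and 9.66) and the auxiliary Cacna2d1 (9.16, 9.32 and 9.84) were brightest, with Cacna1b and Cacna1d on 5 controls and Cacna1e, Cacna1f and Cacnb4 on none. Among potassium channels they were Kcna6 (10.52, 10.97 and 11.21), Kcnd2 (9.44, 9.72 and 9.96), Kcnab2 (9.54, 9.64 and 9.69), Kcnc4 (8.68, 9.70 and 10.05) and Kcnc1 (8.53, 9.13 and 9.19). Kcna1 and Kcnd1 were detected on 3 controls, and Kcna4, Kcna5, Kcnd3 and Kcnq1 on none.

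Glutamate transport genes were detected on all 6 for 8 of 13, among them Slc1a3, the serine transporter Slc1a4 (11.77, 11.94 and 12.38) and the neuronal glutamate transporter Slc1a1 (10.26, 10.60 and 10.71). Slc1a6 and Slc38a1 were detected on 5 controls, and Slc1a2, Slc17a8 and Slc38a5 on none. Of 21 neurotrophin and growth factor genes 10 were detected on all 6, led by Fgf13 (11.54, 11.83 and 11.99), Vegfb (10.57, 10.76 and 10.93) and Vegfa (10.07, 10.29 and 10.68). Bdnf, the activity-regulated neurotrophin, was detected on 2 controls, between 4.40 and 6.22.

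Genes of several regulated programmes were detected without an agonist. Of 32 immediate early genes, which neuronal activity induces, 22 (68.8%) were detected on all 6, with Fosl2 at 10.37, 10.44 and 10.70, Homer1, Dusp1 at 10.004, 10.13 and 10.26, Egr1 at 9.10, 9.84 and 9.97, and Dusp6 at 8.49, 9.08 and 9.25. Fos was at 6.36, 7.10 and 7.45 and Npas4 at 5.29, 5.31 and 5.42. Fosb and Bdnf were detected on 2 controls, Klf4 and Atf3 on 1, and Nr4a1, Ier2, Ier5, Btg2, Gadd45b and Ptgs2 on none.

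Cholesterol synthesis genes were detected on all 6 for 18 of 20, and after Hmgcs1 the brightest were Fdps (13.06, 13.52 and 13.61), Nsdhl (12.28, 12.92 and 12.98), Sqle (11.95, 12.75 and 12.84) and Msmo1 (11.90, 12.45 and 12.68). Idi1 was detected on 1 control and Sc5d on none. Of 24 genes known as targets of ATF4, the transcription factor of the amino acid and integrated stress responses, 18 (75.0%) were detected on all 6, led by the amino acid transporter Slc7a5 (11.68, 11.91 and 12.30), the asparagine synthetase Asns (11.19, 11.30 and 12.31), the serine enzyme Psat1 (11.15, 11.20 and 11.76), the cationic transporter Slc7a3 (10.51, 10.70 and 11.25) and Atf4 itself (10.38, 10.76 and 11.30). Sesn2 was detected on 4 controls, Slc7a11 on 1, and Cth, Aldh18a1, Pck2 and Slc7a1 on none.

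Metabolic lists were detected on all 6 for 13 of 14 glycolytic, 34 of 36 ribosomal and 31 of 34 respiratory chain genes. Tpi1 (11.97, 12.34 and 12.45), Ldha (12.34, 12.66 and 12.79) and Pkm (11.85, 12.11 and 12.19) were bright glycolytic genes after Gapdh, and Ndufa4 (13.37, 13.42 and 13.48), Cox4i1 (13.53, 13.63 and 13.82) and Cox5b (13.15, 13.38 and 13.58) followed Atp5b in the respiratory chain. The hypoxia list had 16 of 19, the unfolded protein response 13 of 18, heat shock proteins 7 of 10, NRF2 targets 13 of 19, p53 targets 11 of 17 and interferon response genes 9 of 19. In these the brightest after genes named above were Ndrg1 (9.79, 10.07 and 10.30), Xbp1 (11.55, 11.73 and 11.85), Hsph1 (11.40, 11.69 and 11.82), the ferritin Ftl1 (13.65, 13.71 and 13.89), Ei24 (10.53, 10.97 and 11.10) and B2m (8.75, 8.94 and 9.09).

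Death machinery was represented by 12 of 17 Bcl2 family genes, 8 of 13 caspase genes and 5 of 10 calpain genes. Mcl1 (11.03, 11.21 and 11.41), Bok (11.18, 11.20 and 11.23), Bnip3l (10.47, 10.64 and 10.79), Bcl2l2 (9.50, 9.77 and 9.85) and Bad (8.68, 8.84 and 9.24) were the brightest of the Bcl2 family, with Pmaip1 on 2 controls and Bcl2a1a, Bik, Bmf and Bnip3 on none. Casp2 (9.96, 10.05 and 10.29), Diablo (9.52, 9.82 and 10.04) and Casp9 (9.37, 9.56 and 9.75) led the caspase list, in which Casp4, Casp8, Casp12, Casp14 and Birc3 were detected on none. Capn2, a calcium-activated protease, had 10.50, 10.65 and 10.80 and Capn5 10.25, 10.55 and 10.72, with Capn3 on 2 controls, Capn6 on 1, and Capn1, Capn15 and the inhibitor Cast on none.

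Most targets differed little between the 6 controls. Over 10997 targets detected on all 6, the median SD was 0.178 log2 units, against 0.080 expected from the spread of beads within an array, a median ratio of 2.09. The median SD was 0.204 in the dimmest of 5 equal bins of level and 0.123 in the brightest. An SD above 0.5 was found for 263 targets (2.39%), a range above 1 log2 unit for 749 (6.81%) and above 2 for 8. Without control replicates 1 and 3 the median SD was 0.123 and the number with an SD above 0.5 was 61; without replicate 1 alone that number was 110, and without replicate 4 alone it was 395.

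Among the 20 most variable genes the largest SD, 1.53, belonged to Psmc1, a proteasome ATPase, with levels of 9.10, 9.05, 5.69, 9.05, 6.32 and 7.25 in control replicates 1 to 6. Psmc1 was also scattered on the 9 kainate arrays, between 4.97 and 9.07. On the 15 arrays normalized together, the 6 with a level of 8.97 or above had 35 to 48 beads, while the other 9 had 20 to 30, apart from control replicate 6 with 41 beads at 7.23. The part of bead number in this spread was not tested. Scg2, a granin cut into secreted peptides, had 10.53 and 10.77 in replicates 1 and 3, while the other 4 lay between 8.63 and 8.74, an SD of 1.01. Chac1, a glutathione-degrading ATF4 target, had 11.51 and 11.38 in replicates 1 and 3, while the other 4 lay between 9.73 and 9.84, an SD of 0.86. For Scg2 and Chac1 the 2 sets of arrays did not overlap.

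Genes highest in control replicates 1 and 3 were also the amino acid transporter subunit Slc3a2 (7.61 and 6.84, and at most 6.56 in the other 4), C1ql2 (7.84 and 7.80), Mfng, the activity-regulated factor Egr4, the mitotic kinesin Kif23, the folate enzyme Mthfd1l (9.28 and 9.11), Chodl, the spindle checkpoint gene Mad2l1, the mitotic kinase Aurka (7.76 and 7.85) and the peptide Tac1 (8.75 and 8.93). Lowest there were Tnfrsf22 (5.01 and 5.57, and at least 6.80 in the other 4), the cholesterol carrier Stard4 (8.84 and 8.90), the sorting receptor Sorl1, Peg3 and the cadherin Cdh4. Pmpcb, Snx1 and Psmc1 followed neither pattern. In all, replicates 1 and 3 were the 2 highest arrays for 12 of the 20 genes and the 2 lowest for 5, compared with 22.6% and 22.8% of the 7946 genes detected on all 6. The 20 genes were chosen by this spread, so these counts describe them and were not tested.

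**Figure D3:**
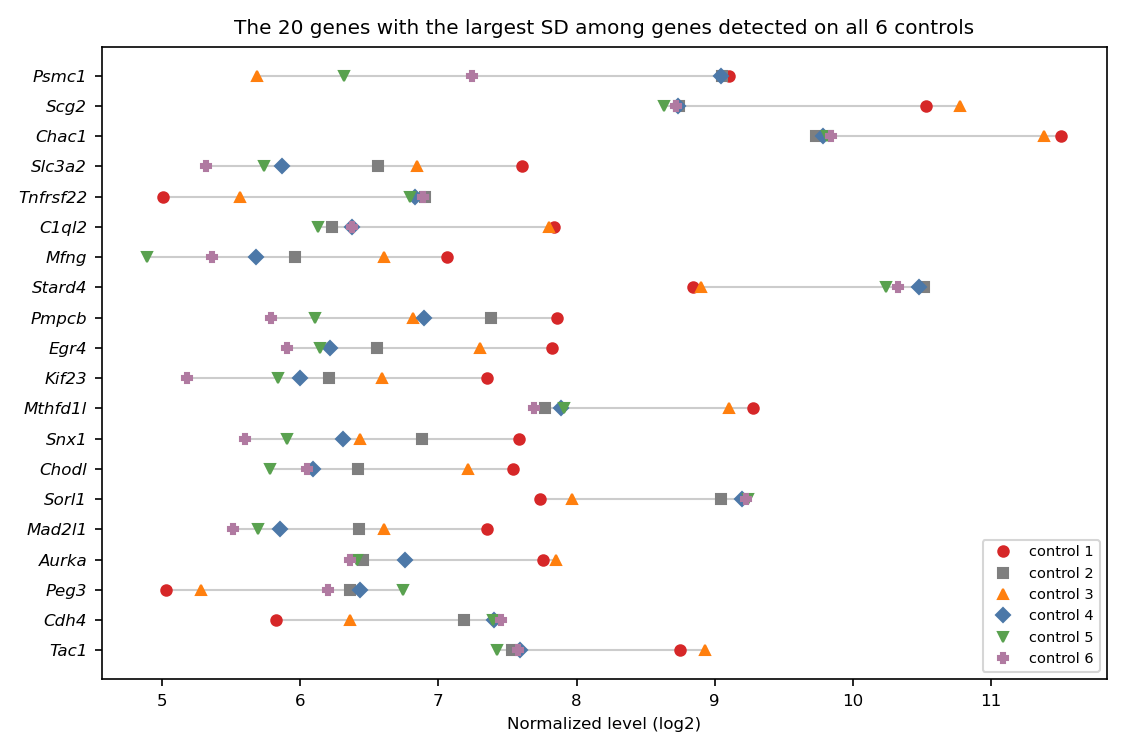
Normalized log2 level of the 20 genes with the largest SD between controls, 1 symbol per control, joined by a line over their range. Psmc1 spreads from 5.69 to 9.10 without following replicates 1 and 3, and Scg2 and Chac1 split into replicates 1 and 3 above and the other 4 below.

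The steadiest of the 1000 brightest genes were Slc1a3, with an SD of 0.019, the Bcl2 relative Bok (0.022), the axonal transport protein Fez1 (0.022), the vesicle GTPase Rab2a (0.022) and Maco1 (0.023). The 1000 brightest had a median SD of 0.113. Slc1a3 lay between 12.61 and 12.65 on every control.

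Several gene lists stood high or low in control replicates 1 and 3. Over all 7946 genes detected on all 6 controls, those replicates were the 2 highest arrays for 22.6% and the 2 lowest for 22.8%, the shares to set beside the counts that follow. Of 18 ATF4 targets detected on all 6, replicates 1 and 3 were the 2 highest arrays for 17 and the 2 lowest for 1, and the median deviation of the list's members from their 6-array means was 0.45 in replicate 1 and 0.44 in replicate 3, while it was between -0.30 and -0.23 in the other 4. Cholesterol synthesis ran the other way: replicates 1 and 3 were the lowest for 16 of 18 genes and the highest for 0, with deviations of -0.44 and -0.46, while the other 4 lay between 0.20 and 0.27. Insig1, a sensor of sterols, ranged from 7.32 to 8.59, Mvd from 8.51 to 9.99 and Stard4 from 8.84 to 10.51. These are counts over genes that share arrays, so they describe the 6 arrays and not independent events.

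Cell cycle genes had replicates 1 and 3 highest for 12 of 16 and lowest for 1, with list deviations of 0.50 and 0.29 and a summed linear level over all 19 members of 3491 and 3501 units, while the other 4 had 2551 to 2655. The members Ccnb2, Ccna2 and Bub1 were at background on every control, while the other 16 were detected on all 6. Respiratory chain genes were highest there for 18 of 31 and lowest for 0, and ribosomal genes highest for 16 of 34 and lowest for 2. Channel and synapse lists ran low: the 2 arrays were lowest for 14 of 20 presynaptic genes (highest for 3), 10 of 21 pan-neuronal genes (highest for 1), 6 of 9 calcium, 7 of 12 potassium and 3 of 3 sodium channel genes, with 0 highest in each channel list. The 3 AMPA receptor subunits and 3 of the 4 kainate receptor and Neto genes were lowest there as well. The list deviation of astrocyte genes stayed between -0.06 and 0.04 in all 6 controls. The plot of list deviations shows these lists by control.

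**Figure D4:**
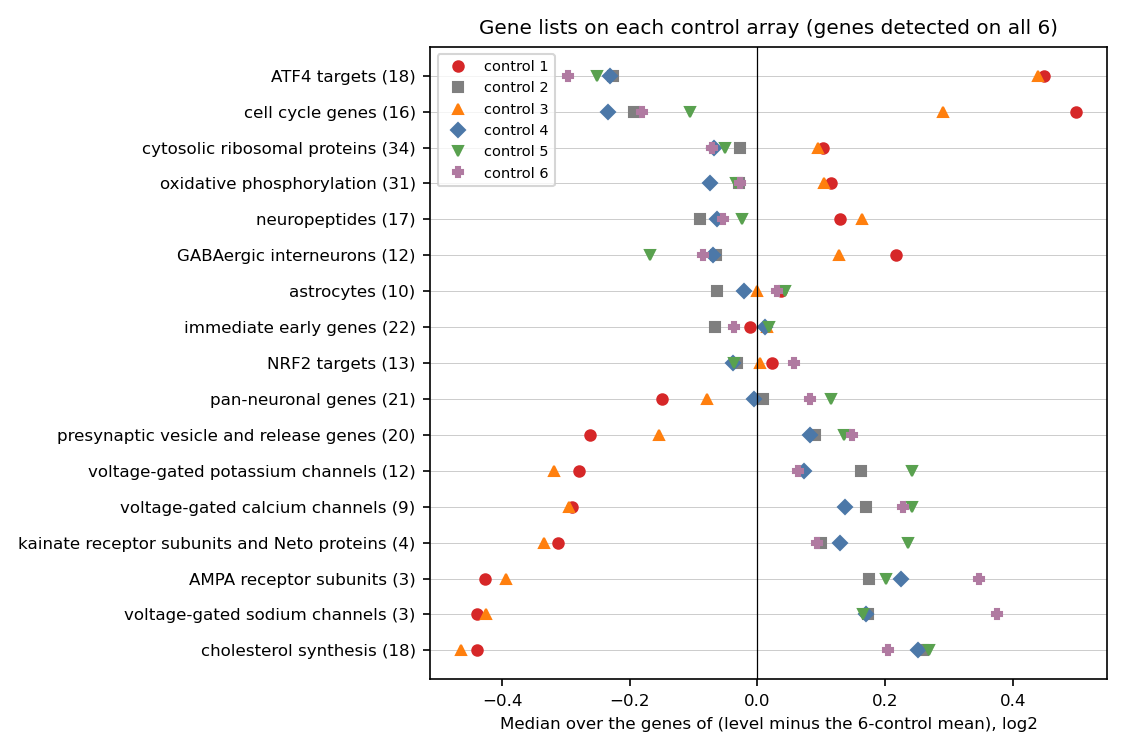
Median over a list's members of the level minus the member's own 6-control mean (log2 units), 1 symbol per control, for members detected on all 6, whose number stands beside the list. ATF4 targets lie near 0.45 in replicates 1 and 3 and below -0.2 in the other 4, and cholesterol synthesis is reversed.

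Kdm5d, a Y-linked gene, was the only member of its list detected on all 6 controls, with deviations of 0.80, 0.15, 0.31, -0.53, -0.36 and -0.38 in replicates 1 to 6. Zfy2 was detected on 5 controls and Eif2s3y, Uty, Zfy1 and Usp9y on none. The part of the sex of the embryos in the separation of replicates 1 and 3 was not tested.

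Promoters of the ATF4 list held the letters TGATGNAA, the composite site at which C/EBP and ATF factors bind, on either strand in 7 of 25 promoters (28.0%), compared with 3.97% of all 32851 promoters of the same length. Chac1 (chr2:119350992-119351291, plus strand), Trib3 (chr2:152344011-152344310, minus strand) and Asns (chr6:7693160-7693459, minus strand) were detected on all 6 controls and highest in replicates 1 and 3, and their matches, in capitals, begin at -193, 15 and -23 relative to the start. The sterol element TCACNCCAC was found in 1 of 20 cholesterol synthesis promoters (5.0%), compared with 1.24% of all promoters. It lay in the promoter of Hmgcs1 (chr13:119690101-119690400, plus strand), at -137. A match of letters is no evidence of binding.
Chac1: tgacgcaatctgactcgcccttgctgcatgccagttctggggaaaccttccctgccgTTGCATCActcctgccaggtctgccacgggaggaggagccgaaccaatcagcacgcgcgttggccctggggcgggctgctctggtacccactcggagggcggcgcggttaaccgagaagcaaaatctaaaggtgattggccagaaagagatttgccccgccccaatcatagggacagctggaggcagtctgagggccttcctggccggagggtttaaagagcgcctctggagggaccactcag
Trib3: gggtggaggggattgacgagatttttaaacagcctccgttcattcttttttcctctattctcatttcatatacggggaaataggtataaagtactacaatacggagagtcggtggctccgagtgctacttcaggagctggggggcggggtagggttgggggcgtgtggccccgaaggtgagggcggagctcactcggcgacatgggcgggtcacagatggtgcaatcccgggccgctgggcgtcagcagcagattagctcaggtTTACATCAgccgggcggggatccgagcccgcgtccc
Asns: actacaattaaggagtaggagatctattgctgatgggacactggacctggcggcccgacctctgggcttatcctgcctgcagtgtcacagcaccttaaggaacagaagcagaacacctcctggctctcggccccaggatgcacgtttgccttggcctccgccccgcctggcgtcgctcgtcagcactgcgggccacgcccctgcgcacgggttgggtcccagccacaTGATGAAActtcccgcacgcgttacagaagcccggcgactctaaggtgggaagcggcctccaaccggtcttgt
Hmgcs1: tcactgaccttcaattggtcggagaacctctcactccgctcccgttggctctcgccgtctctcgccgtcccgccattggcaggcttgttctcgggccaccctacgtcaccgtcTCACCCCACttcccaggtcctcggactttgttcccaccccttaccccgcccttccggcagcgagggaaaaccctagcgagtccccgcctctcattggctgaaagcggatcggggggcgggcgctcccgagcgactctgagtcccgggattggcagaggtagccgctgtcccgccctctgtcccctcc

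Neither the chip nor the position on it separated the controls past the threshold. Limma's moderated F test over the 3 chips called 0 of 12649 targets at a Benjamini-Hochberg adjusted p below 0.05 (0.0%), with 1568 (12.4%) at an unadjusted p below 0.05 and a smallest adjusted p of 0.212. In the 9 kainate arrays the same chips gave 0 of 13700 targets (0.0%), with 810 (5.91%) at an unadjusted p below 0.05, a test added after the data were seen. Position A minus position B gave 0 of 12649 (0.0%), with 1128 at an unadjusted p below 0.05 and a smallest adjusted p of 0.54. With position as a second term in the chip test, 2303 targets (18.2%) had an unadjusted p below 0.05. In the position test with chip as a block, 2021 (16%) did. Both fits called 0 targets. Under median scaling without background correction, the smallest adjusted p of the chip F test was 0.054. With so few controls per chip and position, 0 calls do not show that these effects were absent. Without control replicate 5, which sat at position A, the position test called 1301 targets, 458 higher at A and 843 lower; only replicates 1 and 3 were then left at position A. Position and these 2 arrays cannot then be told apart.

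Set against the 9 kainate arrays, most detection calls of the controls were shared, while about as many targets differed in level as did not. Of the 7946 genes detected on all 6 controls, 7645 were detected on all 9 kainate arrays and 2 on none. Of the 6010 genes detected on no control, 25 were detected on all 9 kainate arrays and 5132 on none. List members detected on all 9 kainate arrays and on no control were the peptide Adm, the stress gene Gadd45b, the connexin Gjb6, the factor Lhx5 and the calcium buffer Pvalb, and Fdft1, a cholesterol enzyme, was detected on no kainate array and on all 6 controls.

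Levels were compared with limma over all 15 arrays, normalized together, as the mean of the 3 kainate times minus the control mean. Of 14154 targets 7188 (50.8%) passed a Benjamini-Hochberg adjusted p of 0.05, 3363 (23.8%) higher and 3825 (27.0%) lower after kainate, with a median change of -0.02 over all targets. For 2101 (14.8%) the 9 kainate and the 6 control arrays did not overlap. A gene that few controls detected passes that filter only if it is high after kainate, so lists are described by all their members on the array, in a limma fit of all 24606 targets without a filter. That fit called 13.4% higher and 15.2% lower, with a median change of -0.01, and 14.3% and 16.1% without control replicates 1 and 3. Changes of single genes are from the filtered fit. Since each exposure time occupied its own chip position and the labelled time of all 6 controls is 0, position and hours in culture cannot be told apart from kainate.

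Of the receptors through which kainate acts, some were lower after it. Grik1 lay between 5.25 and 6.58 on the 9 kainate arrays, and at 7.05, 7.78 and 7.86 in the controls, so the groups did not overlap, and it fell by 1.70 ± 0.12 (SE; limma adjusted p = 1.32e-08). Neto1 lay between 4.62 and 6.05 on the kainate arrays, and at 6.28, 6.55 and 7.24 in the controls, and fell by 1.24 ± 0.15 (limma adjusted p = 4.62e-06). Gria1 lay between 7.35 and 9.27 after kainate, overlapping the controls at 8.63, 9.69 and 9.93, and fell by 0.96 ± 0.19 (limma adjusted p = 0.000623). Gria2 changed by -0.22 ± 0.11 (limma adjusted p = 0.116), Gria3 by 0.20 ± 0.13 (0.216), Grik5 by 0.33 ± 0.13 (0.0516) and Grik4 by -0.04 ± 0.09 (0.764), none past the threshold. Grin2c lay between 5.69 and 6.80 after kainate, overlapping the controls at 5.55, 5.94 and 6.35, a difference of 0.32 ± 0.13 (limma adjusted p = 0.0498) that was 0.45, 0.62 and -0.10 within chips 1, 2 and 3. Grin2b, detected on 1 control and all 9 kainate arrays, lay between 4.74 and 5.61 after kainate, and at 4.33, 4.63 and 4.87 in the controls. In the unfiltered fit 1 of all 5 NMDA receptor genes rose and 0 fell, and 0 rose without control replicates 1 and 3. Of all 6 kainate receptor and Neto genes on the array 2 fell and 0 rose, with and without control replicates 1 and 3. Of all 4 AMPA receptor subunits 1 fell and 0 rose, with a list median of -0.19. Without control replicates 1 and 3, in which Gria1, Gria2 and Gria3 were lowest, 2 fell and 0 rose, with a median of -0.32. The unfiltered fit of all 15 arrays called 13.4% of all targets higher and 15.2% lower.

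Neuronal lists differed from one another. Of all 24 pan-neuronal genes 13 fell and 1 rose, with a list median of -0.25. The list deviation from the control mean was between 0.02 and 0.06 on the 5 h arrays, between -0.50 and -0.46 at 15 h and between -0.63 and -0.36 at 24 h, while it was between -0.16 and 0.11 in the controls, so the 5 h arrays lay within the range of the controls. Tubb3 fell by 1.01 ± 0.09 (limma adjusted p = 1.95e-07) and Syn2 by 1.33 ± 0.18 (1.34e-05), and the adhesion molecule Ncam1 rose by 0.56 ± 0.10 (0.000127). Of 24 presynaptic genes 14 fell, among them Doc2b by 1.65 ± 0.11 (limma adjusted p = 6.48e-09), and 3 rose. Of 19 calcium sensors and buffers 11 fell and 2 rose, with list deviations between 0.03 and 0.11 at 5 h and between -0.70 and -0.52 at 15 h and 24 h.

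Cortical layer lists went different ways. Of 13 deep layer genes 8 fell and 2 rose, with a median of -0.41, and of 9 upper layer genes 2 fell and 4 rose, with a median of 0.31. Of 12 glutamatergic identity genes 7 fell and 3 rose. Of 11 striatal genes 1 fell and 1 rose, of 10 Cajal-Retzius and subplate genes 2 fell and 1 rose, and of 10 cholinergic and monoaminergic genes 1 fell and 3 rose. The same unfiltered fit called 13.4% of all targets higher and 15.2% lower. Counts as small as those in the previous sentence, and the 2 upper layer genes that fell, are not set apart from these shares.

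In the GABAergic list 5 of 22 rose and 6 fell, in the unfiltered fit that called 13.4% of all targets higher and 15.2% lower. Slc32a1 fell by 1.30 ± 0.06 (limma adjusted p = 1.65e-10), Npy by 2.18 ± 0.08 (4.79e-12) and Cort by 2.09 ± 0.14 (5.26e-09), while Prox1 rose by 1.39 ± 0.10 (6.78e-09). Of all 14 GABA-A subunits 3 fell and 0 rose. Without control replicates 1 and 3 the counts lower were 15 pan-neuronal, 16 presynaptic, 8 deep layer, 1 upper layer, 11 calcium sensor, 7 GABAergic and 4 GABA-A genes.

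Astrocyte and progenitor lists had members higher after kainate and none lower. Of all 14 astrocyte genes 9 rose and 0 fell, with a list median of 0.64, and of 14 progenitor genes 9 rose and 0 fell, with a median of 0.56. Of 13 oligodendrocyte lineage genes 4 rose and 3 fell, with a median of 0.02. Over all targets of that unfiltered fit 13.4% rose and 15.2% fell. Without control replicates 1 and 3, 9 astrocyte, 10 progenitor and 2 oligodendrocyte lineage genes rose. Gfap lay between 6.23 and 7.40 after kainate, and at 5.42, 5.58 and 5.83 in the controls, and rose by 1.37 ± 0.08 (limma adjusted p = 5.96e-10); Vim rose by 1.5 ± 0.06 (7.48e-12). Slc1a3, the steadiest bright gene of the controls, lay between 12.76 and 13.50 after kainate, and at 12.57, 12.60 and 12.62 in the controls, and rose by 0.54 ± 0.06 (limma adjusted p = 3.28e-06). Beside this, the summed linear level of all 24 pan-neuronal genes was 55929 to 91181 units after kainate and 86489 to 99404 in the controls, and that of all 14 astrocyte genes 24065 to 41511 after kainate and 19005 to 20181 in the controls. How far a change in the mixture of cells enters the neuronal differences was not tested.

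Microglial genes had a summed level over 15 members of 499 to 1065 units after kainate and 513 to 558 in the controls, with Ptprc, Itgam and Tyrobp among those at background in the controls. Endothelial genes summed to 264 to 291 units after kainate and 254 to 290 in the controls.

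Immediate early genes rose for 25 of all 32 and fell for 0, with a list median of 2.06, with the same counts without control replicates 1 and 3. Fos lay between 12.001 and 13.11 after kainate, and at 6.36, 7.08 and 7.42 in the controls, and rose by 5.50 ± 0.14 (limma adjusted p = 9.05e-14); Npas4 rose by 5.01 ± 0.07 (1.26e-17). Cholesterol synthesis genes fell for 12 of 20 and rose for 1, with a list median of -0.78. Mvk lay between 5.65 and 7.41 after kainate, and at 7.56, 8.12 and 8.29 in the controls, and fell by 1.74 ± 0.11 (limma adjusted p = 2.41e-09). Without control replicates 1 and 3 that list had 15 lower and a median of -1.05.

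The ATF4 list depended on which controls it was set against. Of all 24 genes 5 rose, 4 fell and 15 did not pass, with a median of 0.05. Over the 21 that passed the filter the median was 0.06, and -0.05 under median scaling without background correction. Without control replicates 1 and 3, 13 of all 24 rose and 4 fell, with a median of 0.24. The list deviation was 0.44 and 0.43 in control replicates 1 and 3 and -0.29 to -0.22 in the other 4, 0.31 to 0.36 at 5 h of kainate, -0.13 to -0.07 at 15 h and -0.06 to 0.04 at 24 h. Control replicates 1 and 3 therefore lay above every kainate array, and the other 4 below every one.

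Chac1 had 9.66, 9.75 and 11.42 in the controls, and lay between 11.19 and 11.33 after 5 h, between 9.91 and 10.05 after 15 h and between 9.71 and 9.76 after 24 h, so the controls overlapped the kainate arrays. Cholesterol synthesis kept replicates 1 and 3 between the other controls and the late kainate arrays: -0.44 and -0.48 in replicates 1 and 3, 0.20 to 0.27 in the other 4 controls, between -0.14 and -0.10 after 5 h, between -1.20 and -1.10 after 15 h and between -1.44 and -1.22 after 24 h. Scg2, highest in control replicates 1 and 3, lay between 12.06 and 12.86 on the kainate arrays, and at 8.58, 8.67 and 10.68 in the controls, and rose by 3.24 ± 0.30 (limma adjusted p = 1.86e-07). Tac1 changed by -0.14 ± 0.20 (limma adjusted p = 0.599) and overlapped between the groups.

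**Figure D5:**
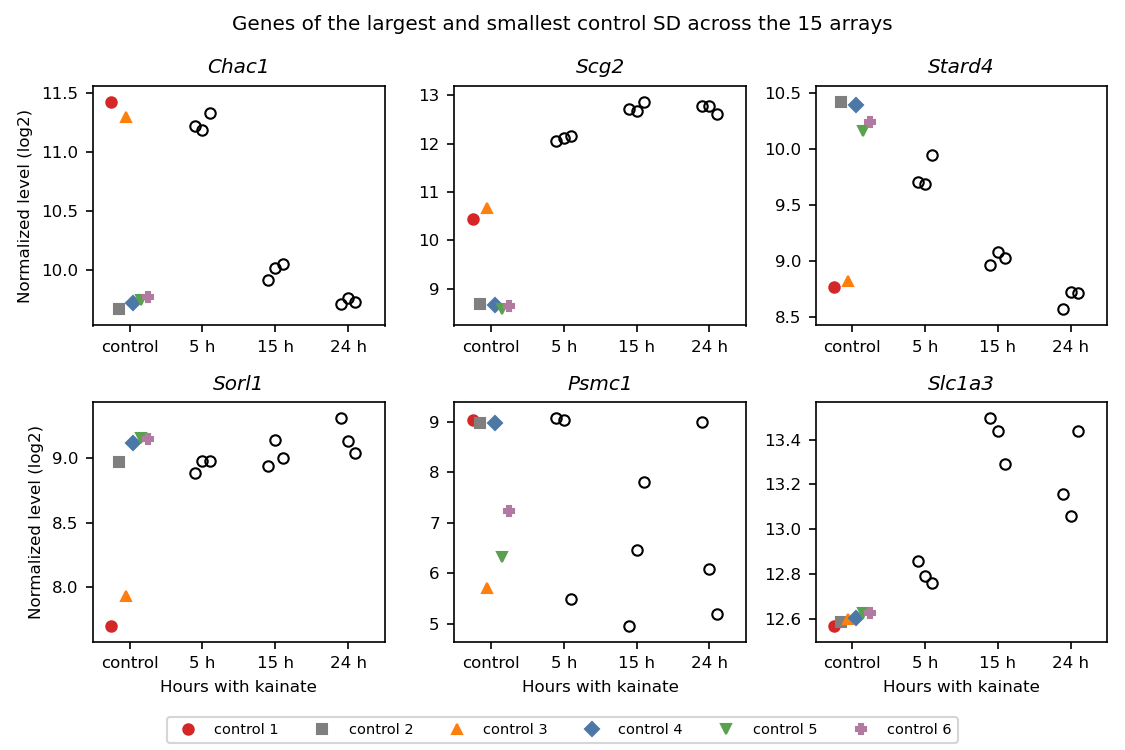
Normalized log2 level of Chac1, Scg2, Stard4, Sorl1, Psmc1 and Slc1a3 in all 15 arrays, in the order control, 5 h, 15 h and 24 h with kainate, with a filled symbol for each control and an open circle for each kainate array. Chac1 in control replicates 1 and 3 lies beside the 5 h arrays, between 11.19 and 11.42, and Psmc1 is scattered in every group.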

How the data were processed

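Illumina mouse bead arrays were read for 6 controls and 9 kainate samples, lying on 3 chips. Per the file headers, the authors exported signal as mean bead intensity from BeadStudio without normalization, with a detection score and a number of beads per target. The deposited detection score is a fraction, taken here as 1 minus the detection p-value. A second table by the authors holds a ratio per target, used as an alternative. The deposited number of beads and SD over beads gave the SD expected between arrays. A further 72 columns, of 9 arrays of no sample, were not used. Genes were named from the platform annotation because the deposited accession column did not match the targets, and symbols were updated to the GRCm38.p6 gene table. After the data were seen, 1 target with bright signals but a detection p above 0 was left out. With it, the SD of the negative control beads inferred from the detection scores was 107.5 and 118.3 in control replicates 1 and 3. Without it, that SD was 7.4 and 7.6 there, and it was 6.1 to 7.1 in the remaining controls either way. The alternative with the scores as deposited keeps this target.

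Signals were normalized with limma's neqc (offset 16), over the 6 controls for levels and ranks and over all 15 arrays for the comparison with kainate. Detection p below 0.05 counted as detected. Targets detected on at least 3 arrays were tested with limma's moderated tests and Benjamini-Hochberg adjustment, for chip, position and kainate. After the data were seen, lists were counted over all their members in the unfiltered kainate fit, run also without control replicates 1 and 3. R 4.3.3, limma 3.58.1, Python 3.11.15, pandas 2.3.3, numpy 2.4.6 and matplotlib 3.10.9 were used, and the tests were checked on simulated data. The number of arrays limits the precision. Genes named are the 30 brightest, up to 5 brightest always-detected members of each of 66 lists, every member of lists of at most 20 genes by its calls, every ionotropic glutamate receptor gene, the 20 most variable genes, the 5 steadiest of the 1000 brightest, up to 5 genes past the chip or position threshold, and the 3 largest changes each way after kainate among list members detected on all 6 controls. A few more are named as examples chosen after their values were seen. Members and lists were chosen with earlier results of these data known. Alternatives were median scaling without background correction, the authors' ratios, an offset of 50, the scores as deposited, other detection limits and filters, chip and replicate number as blocks, and leaving out arrays. Whether the replicate numbers pair samples was not settled. Deviations from group means correlated at -0.114 to 0.298 between same-numbered arrays and at -0.277 to 0.19 between differently numbered arrays.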

Additional observations from a re-analysis of the deposited data

Results flagged for a closer look

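Among the 6 controls, 112 list deviations and gene levels were examined for an array standing apart, by the gap to its nearest neighbour over the whole range, and 6 (5.36%) passed; chance alone flags about 1 in 20. The microglia and macrophage list had a deviation of 0.151 log2 units in replicate 3, the highest, with the next at 0.00084. The caspase list had 0.190 in replicate 3, the highest, with the next at 0.023. Ybx1 was lowest in replicate 6, at 14.26, while the other 5 controls shared the top value of the quantile scale, 14.47. Hmgcs1 was lowest in replicate 1, at 13.92, with the next at 14.19, and Rps20 was lowest in replicate 1, at 13.57, with the next at 14.02. Ckb was lowest in replicate 2, at 13.64, with the next at 13.77.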

How the results depend on the processing

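The number of targets detected on every control kept was 10305 to 11428 under the alternatives run. Leaving out controls can only keep or raise that number. Under every alternative run, 29 or 30 of the 30 brightest genes remained among the 30 brightest, and the chip called 0 targets. The number with an SD above 0.5, 263, was 158 under median scaling or with the authors' ratios, 92 with an offset of 50, 137 with the detection scores as deposited and 61 without control replicates 1 and 3, and 110 to 395 without each control in turn. Of the 20 most variable genes, 9 remained under median scaling and with the authors' ratios, 10 with an offset of 50, 8 with the scores as deposited and 2 without replicates 1 and 3, and 12 to 19 without each control in turn. The position test called 0 to 1301 targets without each control in turn, and 1301 only without replicate 5. The median change of the ATF4 list after kainate turned to -0.054 under median scaling and with the authors' ratios, and to -0.062 with the replicate block, a fit that also leaves out control replicates 4 to 6. The median change of GABA-A subunits was -0.55 over the 4 that passed the filter. Over all 14 without a filter it was -0.0006, and 0.009 when control replicates 1 and 3 were also left out. The cause of these differences was not tested, except that an offset of 50 compresses low levels by construction. The count of targets changed after kainate was 6700 to 7423 without each array in turn and 7650 without replicates 1 and 3. With the replicate numbers as a block over replicates 1 to 3 of every group, 6029 targets were called. Targets dim against the background carry more bead error, so small differences in them were not detectable.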
